A study of Mus musculus with 50 samples.

Results

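Hemogenic endothelial cells made in culture from mouse embryonic stem cells (iHECs) were divided by whether they held RNA of a factor that the study went on to screen. The 8 screened factors are the homeodomain genes Nkx2-3, Hoxa5, Hoxa7, Hoxa9 and Hoxa10, together with Ikzf1, Hlf and Setbp1. A cell was put in the group with a factor when at least 1 of them was above TPM 1 (an abundance of transcripts, scaled by gene length to a common total). The groups were therefore chosen by measured values of these 8 genes, and the values of the 8 genes are given below as a description only. Of the 50 cells of the series, 13 had a factor above TPM 1 and 37 had none. The 13 cells were 26% of all cells, with an exact 95% interval of 14.6% to 40.3%, and like all intervals below it covers counting error over cells only. Both groups were iHECs of the C57BL/6 strain, from stem cells with a doxycycline-inducible Runx1 cassette at the Rosa26 site, given doxycycline, and sorted as CD31+CD41lowCD45-c-kit+CD201high. The stem cell lines were drug-selected clones, and no cell here carried a cassette for a screened factor as far as the labels state. The labels name no culture, so the 50 cells are 1 sample without replicates. Differences between the groups are described with their spread over cells, and no p-value was given.

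Hemogenic endothelium is the vessel lining from which blood progenitors bud in the embryo, a transition that needs Runx1. Hox genes encode homeodomain factors that record position along the body axis, and those of the A cluster are also active in blood stem cells. Hlf is a leucine zipper factor known from blood stem cells, Ikzf1 encodes the zinc finger factor Ikaros that lymphocytes need, Nkx2-3 is a homeodomain factor of spleen and gut vessels, and Setbp1 encodes a partner of SET, a protein that restrains the phosphatase PP2A. In the study, each was tested for what it adds to Runx1 in making T cells.

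Of the 13 cells, 11 had 1 factor above TPM 1 and 2 had a pair, which made 15 occurrences. Hoxa5 (GRCm38 chromosome 6, 52201754 to 52204587, minus strand) was at 26.1 TPM in cell 1-2, 15.1 in cell 2-6, 16.3 in cell 2-9 and 27.7 in cell 3-1, where the numbers of a cell are the 2 numbers of its title. Hoxa10, of the same cluster (chromosome 6, 52231197 to 52240854, minus strand) was at 6.96 TPM in cell 1-6, 35.3 in cell 2-1 and 1.395 in cell 3-4. No cell held both. Ikzf1 (chromosome 11, 11685003 to 11772926, plus strand) was at 13.0 TPM in cell 1-9, 15.5 in cell 1-10, 27.7 in cell 2-6 and 20.8 in cell 3-13. Setbp1 was at 6.27 TPM in cell 2-1, 1.141 in cell 2-18 and 6.39 in cell 4-6. Nkx2-3 (chromosome 19, 43612325 to 43615892, plus strand) was at 80.7 TPM in cell 3-14 and listed at 0 in the rest. Cell 2-1 thus had Hoxa10 with Setbp1, and cell 2-6 had Hoxa5 with Ikzf1. Hoxa7, Hoxa9 and Hlf were above TPM 1 in 0 of 50 cells. Taking 3 counts as the limit of a count of 0, a share of at most 6% is compatible with it, while the exact interval reaches 7.11%.

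**Figure D1:**
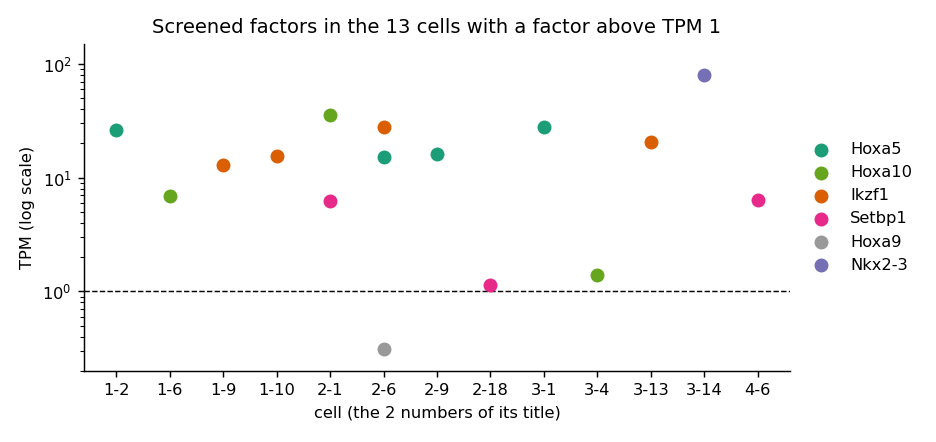
TPM (log scale) of each screened factor listed above 0 in the 13 cells that had a factor above TPM 1, by cell. The dashed line is TPM 1, and cells 2-1 and 2-6 each have a pair of factors above it, while Setbp1 in cell 2-18 and Hoxa10 in cell 3-4 lie closest to it.

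The values nearest the limit were Setbp1 in cell 2-18 at 1.141 TPM and Hoxa10 in cell 3-4 at 1.395 TPM on the inside. On the outside they were Hoxa10 at 0.868 and Setbp1 at 0.764 TPM, both in cell 4-12. In all, 11 of the 37 cells without a factor had one listed above 0, in 7 of them Hoxa9 at no more than 0.569 TPM, and 26 cells had every factor at 0. The first number of the titles takes the values 1 to 4, and its meaning is not given in the labels. Cells with a factor were 4 of 11, 4 of 14, 4 of 13 and 1 of 12 cells under these numbers. The only one under number 4, cell 4-6, was also the cell with the fewest genes of all, so differences within number 4 rest on that cell.

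The mean number of genes above TPM 1 differed little between the groups. Cells with a factor had 6182 genes ± 1498 (SD, n = 13), with a lowest of 2399 in cell 4-6, a median of 6389 and a highest of 8163. Cells without a factor had 6155 genes ± 1019 (SD, n = 37), from 4326 over a median of 6189 to 8615, and the means differed by 26.8 genes. This sum hides unlike differences of 319, 1180, -481 and -3749 genes under first title numbers 1 to 4, the last from cell 4-6 alone. Leaving out 1 cell with a factor gave -138 to 342 genes. Apart from cell 4-6 the cells with a factor lay within the range of the others. Sequencing depth is unknown from TPM, so this number stood in for it as a covariate in the differences that follow.

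The positive markers of the sort were above TPM 1 in most cells of both groups. Cell 4-6, which counts among those with a factor, held 3 of the 4 but stood apart otherwise. It had Kit at 0.459 TPM, Runx1 at 0.88 TPM, the lowest Pecam1 of the 13 and the blood genes Sfpi1 and Fcer1g at 3843 and 1664 TPM, so results are also given without it where it moves them. Cell 3-4, with a factor, had Kit at 0.337 TPM, and cell 4-14, without one, had Kit at 0.114 and Itga2b at 0.171 TPM. Pecam1, which encodes CD31, ran from 50.9 over a median of 309 to 1150 TPM in the 13 cells with a factor and from 80.6 over 338 to 1319 TPM in the others. Procr, which encodes CD201, was at 174, 340 and 655 TPM against 3.05, 262 and 1167 TPM in the same order. Kit was above TPM 1 in 11 of 13 and 36 of 37 cells, and Itga2b, which encodes CD41, in 11 of 13 and 29 of 37. Ptprc, which encodes CD45 and was selected against, was listed at 0 in all 50 cells. Markers of other lineages were sparse for red and connective tissue cells and mixed for white blood cells. Of 9 erythroid and 7 mesenchymal rows, 0 were above TPM 1 in the 20% of cells needed for a comparison. The summed TPM of the erythroid rows ran from 0 to 209 with a factor and from 0 to 1729 without, and that of the mesenchymal rows from 0 to 9.15 and from 0 to 84.2. Of 9 myeloid rows 3 met that share of cells, and of 13 leukocyte rows 10 did. Elane was listed at 0 in every cell. Mpo was above TPM 1 in 1 of 13 and 3 of 37 cells, Csf1r in 1 and 2, and Cd52 in 2 and 1. The lysozyme gene Lyz2 was above TPM 1 in 4 of 13 and 11 of 37 cells, the protease gene Prtn3 in 3 and 9, the adaptor gene Tyrobp in 5 and 22, and Laptm5 in 13 and 35.

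To describe all other genes, the difference in mean log2(TPM + 1) between cells with and without a factor was adjusted for the number of genes per cell. It was taken for the 9104 genes above TPM 1 in at least 20% of the 50 cells, outside the 8 factors. The adjusted difference was 1 or more for 582 genes, or 6.39%, and -1 or less for 553 genes, or 6.07%. The median over all genes was -0.04, and the middle 90% lay between -1.07 and 1.1. On the same scale the median SD of a gene was 2.161 over the cells with a factor and 2.127 over those without. The difference was larger than the SD of both groups for 3 of the 9104 genes. These were Map4k1 at -2.63, Capn7, which encodes a calpain protease, at 2.59, and Cox4i1, a subunit of mitochondrial cytochrome c oxidase, at -0.53, and the last pair were named after their values were seen. For 0 of the 9104 genes were the TPM ranges of the groups apart. Pairs of cells with a factor were no more alike than other pairs. Spearman's rho over the compared genes had a median of 0.562 over 78 pairs with a factor, 0.562 over 666 pairs without and 0.561 over 481 mixed pairs, where a cell enters many pairs and the value is a description. The difference had the same sign within each of the 4 first title numbers for 866 genes, or 9.51%, and the leading genes were taken from these. The sign under number 4 is that of cell 4-6 alone, so each leading gene is also one that stood high or low in that cell, and the share is read as no sign of stability.

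Cell division genes led the genes with higher means in cells with a factor. Cdca3, a trigger of mitotic entry, had the highest adjusted difference of the genes that kept their sign, at 3.23 on the log2 scale. It was above TPM 1 in 10 of 13 cells with a factor and 9 of 37 without. Its TPM ran from 0 over a median of 45.4 to 342 with a factor and from 0 over a median of 0 to 315 without, so the groups overlap and differ in how many cells are off. Aurka, the kinase of the spindle poles, had a difference of 2.53 and was on in 8 of 13 against 12 of 37 cells. Ube2c, the ubiquitin-conjugating enzyme of the anaphase-promoting complex, had 2.48 and was on in 9 of 13 against 19 of 37. Top2a, the topoisomerase that separates sister chromatids, had 2.154 and was on in 7 of 13 against 9 of 37. Apitd1, a centromere protein also called CENP-S, and Rfc5, a subunit of the clamp loader of replication, had 2.06 and 2.183. Without cell 4-6, Aurka had 1.58 and Apitd1 1.28, and without first title number 4 Ube2c had 1.29 and Top2a 1.402. Pmf1, a kinetochore protein, had 2.45 and was above TPM 1 in 13 of 13 against 26 of 37 cells, and with factors counted above TPM 0 it had 1.02.

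The other 3 of the 10 leading genes have roles apart from the mitotic apparatus or beside it. Hist1h4d, a histone H4 gene with near-identical copies among which reads can be split, had 2.31, or 1.49 without first title number 3, and was on in 12 of 13 against 27 of 37 cells. Pmvk, a kinase of the mevalonate pathway that leads to sterols, had 2.26 and was on in 13 of 13 against 28 of 37. Cited2, a partner of the co-activators CBP and p300 known from blood stem cells, had 2.205. Its TPM ran from 23.6 over a median of 167 to 1370 in cells with a factor and from 0 over 63.2 to 596 in the others, and 32 of the 37 were above TPM 1. Every cell with a factor therefore held Cited2, and so did most of the rest, and with factors counted above TPM 0 its difference was 0.67 and that of Rfc5 0.63.

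The 10 leading genes in the other direction were of mixed function. Map4k1, a kinase of blood cells also called HPK1, had an adjusted difference of -2.63 and was above TPM 1 in 3 of 13 cells with a factor, or 23.1% (exact interval 5.04% to 53.8%), against 27 of 37, or 73.0% (55.9% to 86.2%). The cells that held it were 1-10 at 27.5, 2-1 at 45.5 and 2-18 at 19.03 TPM. Nradd, a membrane protein with a death domain, had -2.81 and was on in 4 of 13 against 25 of 37 cells. With factors counted above TPM 0 Nradd had -0.79, Chchd6 -0.55 and Ldb1 -0.99. Ldb1, the adaptor that joins Tal1, Lmo2 and Gata factors, had -2.14 and was on in 8 of 13 against 35 of 37 cells. Its TPM ran from 0 over a median of 9.496 to 128 with a factor and from 0 over 44.3 to 223 without. Snw1, a splicing and transcription cofactor, had -2.34 with 8 of 13 against 36 of 37 cells, and Eif1a, a translation initiation factor, had -2.20 with 10 of 13 against 36 of 37. Oaf had -2.43, Zfp637 -2.16, Chchd6 -2.14 and Zdhhc16 -2.10. Without first title number 1 Snw1 had -1.51, and without number 2 Zfp637 had -0.64, inside the limit. Tnfrsf9, the co-stimulatory receptor 4-1BB, had -2.20 although as large a share of both groups held it, 11 of 13 against 31 of 37, and its median was 2.47 TPM with a factor and 189 TPM without.

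**Figure D2:**
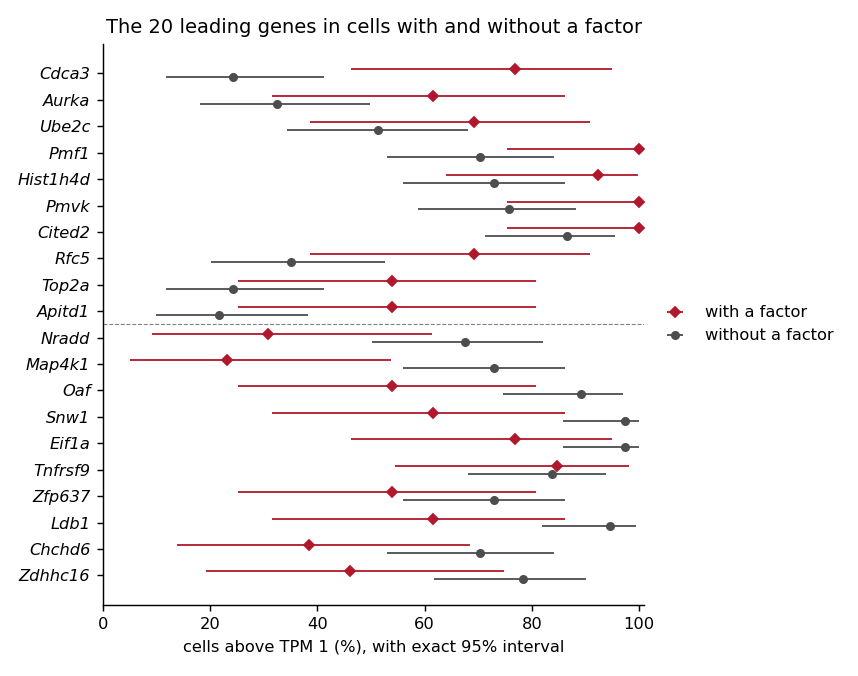
Percent of cells above TPM 1 for the 10 genes with the highest (top) and the 10 with the lowest (bottom) adjusted difference among genes of 1 sign in every first title number, in the 13 cells with a factor (diamonds) and the 37 without (circles), with exact 95% intervals. Intervals of most genes overlap, those of Cdca3 and Map4k1 do not, and the genes were picked for their difference.

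Genes of G2 and mitosis had higher means as a group. Of 20 listed genes 18 were compared. Of these, 16 had an adjusted difference of 1 or more and 0 had -1 or less, where 6.39% and 6.07% of all genes did. The median was 1.74, beside -0.04 over all genes. Birc5, the survivin of the chromosomal passenger complex, had 2.55, Cenpa, the histone of the centromere, 1.99, and Ccnb1, the cyclin that drives mitotic entry, 1.92. Kif20a, a kinesin of cytokinesis, had 1.73 and was above TPM 1 in 7 of 13 against 5 of 37 cells. The 2 compared genes under the limit were Mki67 at 0.95 and Cdc20 at 0.61. Over cells, the 20 genes were on together, with a median Spearman's rho of 0.48 over their 190 pairs.

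The whole program was on in a few cells of each group. Among the 13 cells with a factor, 1-2, 1-10, 3-4 and 3-14 held all 20 genes above TPM 1, cell 2-6 held 13 and the other 8 cells held 4 to 8. Among the 37 cells without a factor, 1-8 and 3-8 held 20, 2-3 and 4-10 held 19, 1-3 held 14 and the others held 2 to 8. Between 9 and 12 genes no cell was found. At least 10 of the genes were therefore on in 5 of 13 cells with a factor, or 38.5% (exact interval 13.9% to 68.4%), and in 5 of 37 without, or 13.5% (4.54% to 28.8%). These intervals overlap, and whether the shares differ was not tested.

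The mean log2(TPM + 1) of the 20 genes showed the same spread. It was 3.45 ± 3.00 (SD, n = 13) with a factor, from 0.84 over a median of 1.73 to 8.51, and 1.83 ± 2.01 (SD, n = 37) without, from 0.43 over 1.13 to 8.17. The adjusted difference of 1.601 is smaller than the SD within either group. Under first title numbers 1 and 3 it was 2.49 and 2.25 before adjustment, under number 2 it was -0.07, and under number 4 it was 0.67 for the single cell 4-6. The list's median over genes was -0.36 under number 2 and -0.78 under number 4. Leaving out cell 1-2 or cell 1-10 lowered the count from 16 to 10 of 18 genes, and leaving out 3-4 or 3-14 lowered it to 11. Without first title number 3 it was 8 of 17. Cell 4-6 held 7 of the genes, and without it the count was 14, with 1.72 for Birc5 and 1.77 for Ube2c. With the number of these genes above TPM 1 in a cell as a further covariate, 0 of 18 reached 1, 1 had -1 or less and the median was 0.01. That covariate is counted from the same 20 genes, so their own values under it are fixed by its making and are no result.

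**Figure D3:**
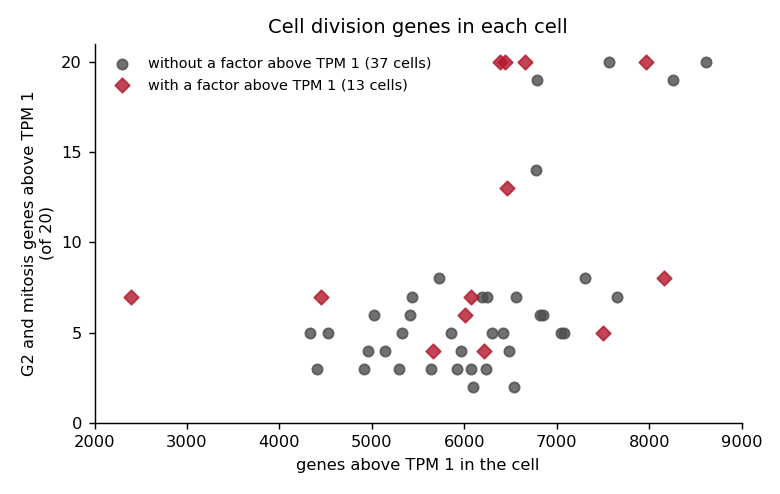
Number of the 20 G2 and mitosis genes above TPM 1 in each cell against the number of all genes above TPM 1, for the 13 cells with a factor (diamonds) and the 37 without (circles). In each group 5 cells hold 13 or more of the genes, with no cell between 9 and 12, and cell 4-6 stands apart at 2399 genes.

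By factor, the division genes were counted in 1 to 4 cells each, too few to compare the factors. At least 10 of the 20 genes were on in 2 of 4 cells with Hoxa5, 2 of 4 with Ikzf1, 1 of 3 with Hoxa10 and the 1 cell with Nkx2-3. They were on in 0 of 3 cells with Setbp1, which held 6 to 8 of the genes. Cell 2-6, with Hoxa5 and Ikzf1, is counted under both. Cells with more genes also had a higher mean of the division genes, with Spearman's rho of 0.431 over the 50 cells, which share their amplification kit and differ in unknown depth.

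S phase genes followed with smaller differences. Of 18 compared genes, 11 had 1 or more and 0 had -1 or less, where 6.39% and 6.07% of all genes did, with a median of 1.03. The list's median before adjustment was 0.04, 1.27, 1.48 and -1.59 under first title numbers 1 to 4. Rrm1 and Rrm2, the subunits of ribonucleotide reductase, had 1.84 each, Gins2, of the replicative helicase, had 1.82 but 0.97 without cell 4-6 and 0.76 with factors counted above TPM 0, and Tk1, thymidine kinase, had 1.799. Tyms, thymidylate synthase, lay on the other side at -0.999, just inside the limit, and was above TPM 1 in 9 of 13 against 33 of 37 cells. Without cell 4-6, 6 of 17 S phase genes had 1 or more and the median was 0.65. Without first title number 3, 4 of 17 had 1 or more, and with factors counted above TPM 0, 4 of 18 had. With the number of G2 and mitosis genes as a further covariate, 3 of 18 had 1 or more and 2 had -1 or less. In cell 4-6 Gins2 and the replication licensing factor Cdc6 stood above the mean of the cells without a factor under first title number 4 by 6.71 and 5.94 on the log2 scale.

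Promoter sequence is shown for the division genes as background. The share of windows with a box follows from the choice of list, would be the same for any grouping of the cells and bears on no difference. The 120 bases before the start in the RefSeq table (GRCm38.p6) were searched for CCAAT, the box bound by NF-Y, and for TTTGAA, the core of the CHR element of mitotic promoters. Both were searched on either strand, and their matches are in capitals, with no overlap. The sequences are of the strand of the gene, for the leading list members with an entry that lies outside the annotated gene. Aurka is at chr2:172370571-172370690 (minus strand), Top2a at chr11:99024190-99024309 (minus), Ccnb2 at chr9:70421555-70421674 (minus) and Birc5 at chr11:117849117-117849236 (plus).
Aurka: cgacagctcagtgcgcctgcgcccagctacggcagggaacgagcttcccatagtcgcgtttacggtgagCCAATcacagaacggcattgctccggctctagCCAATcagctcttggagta
Top2a: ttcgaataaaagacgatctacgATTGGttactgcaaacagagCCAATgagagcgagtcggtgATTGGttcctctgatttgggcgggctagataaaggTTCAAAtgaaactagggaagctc
Ccnb2: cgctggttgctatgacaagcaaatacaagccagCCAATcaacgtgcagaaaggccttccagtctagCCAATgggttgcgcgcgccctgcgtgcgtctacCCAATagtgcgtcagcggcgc
Birc5: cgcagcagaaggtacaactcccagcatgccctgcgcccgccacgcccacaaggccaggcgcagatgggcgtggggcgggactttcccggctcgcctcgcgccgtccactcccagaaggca

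Ccnb2 held 3 CCAAT boxes, which began 87, 54 and 21 bases before the start, Aurka held 2 and Top2a 3, while neither motif is in the window of Birc5. The window of Nusap1, not printed, held neither as well. Of the 20 genes 17 had an entry, and 14 of the 17 windows, or 82.4%, held CCAAT, against 21.3% of all 32851 windows. At least 2 boxes stood in 58.8% of the list's windows and 4.6% of all. TTTGAA was in 6 of 17, or 35.3%, against 7.12% of all. Of 18 windows of S phase genes, 12 held CCAAT and 1 held TTTGAA. A match in these windows is a description and no measure of binding.

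Runx1, the factor that doxycycline induces (GRCm38 chromosome 16, 92601466 to 92826149, minus strand), was present with and without a screened factor. It was above TPM 1 in 12 of 13 cells with a factor and 31 of 37 without. Its TPM ran from 0.88 in cell 4-6 over a median of 130 to 913 in cell 1-2, and in the others from 0.16 over 154 to 614. The median was lower and the mean log2 value higher with a factor, with an adjusted difference of 0.93 below the limit. Before adjustment the difference was 3.46 and 1.04 under first title numbers 1 and 2 and -0.22 and -4.83 under numbers 3 and 4, so it had no common direction. Leaving out first title number 1 gave -0.01, leaving out the others gave 1.21 to 1.52, and leaving out 1 cell gave 0.556 without 1-9 and at most 1.26, without 3-14. TPM per gene does not separate the cassette from the endogenous gene. Of the other Runx and CBF genes compared, Cbfa2t2, a corepressor of the ETO family, had -1.43 and was on in 6 of 13 against 27 of 37 cells, while Cbfb, the partner of Runx proteins, had 0.03.

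Other Hox genes were described next, since 7 of the 13 cells were chosen for a Hoxa gene. Of 14 rows 7 were compared, 1 had an adjusted difference of 1 or more and 0 had -1 or less, and the median was 0.37. Over all genes 6.39% and 6.07% passed the limits, and the counts of this list and of those below stand beside these shares. The 1 gene was Hoxb4, known for expanding blood stem cells, at 1.33. Hoxb4 was above TPM 1 in 8 of 13 cells with a factor, at a median of 6.25 and a highest of 27.4 TPM, and in 11 of 37 without, at a median of 0 and a highest of 42.3 TPM. It was the only compared gene of the list with the same sign under each first title number. By factor, it was above TPM 1 in 4 of 4 cells with Hoxa5, at 2.55 to 25.3 TPM, in 2 of 4 with Ikzf1, in 2 of 3 with Setbp1, in the cell with Nkx2-3, at 13.7 TPM, and in 0 of 3 with Hoxa10. Hoxb5, its neighbour in the B cluster, was above TPM 1 in 4 of 4 cells with Hoxa5, at 6.87 to 47.6 TPM, and in 1 of 3 with Hoxa10, and over the groups in 10 of 13 against 30 of 37 cells. Hoxb2 was above TPM 1 in 3 of 3 cells with Hoxa10, at 58.6 to 90.1 TPM, and in 3 of 4 with Hoxa5. With 3 and 4 cells these counts describe single cells.

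The partners of Hox proteins showed no member past the limit. Of 8 compared cofactors 5 were above 0, with a median of 0.45. Meis1, which binds DNA beside Hox proteins, had 0.41 and was above TPM 1 in 8 of 13 against 19 of 37 cells. The 8 compared genes of Hox-activating chromatin, such as the MLL complex, had a median of -0.44 with 0 past the limit. Of the retinoic acid and Cdx genes that act above the Hox clusters, 0 of 7 passed it, with a median of 0.12. Among 11 Polycomb genes, which keep Hox genes silent, 2 had 1 or more. Those were Ezh2, the methyltransferase, at 1.49 and Eed, its scaffold, at 1.51, and without cell 4-6 they had 0.80 and 0.92. With factors counted above TPM 0 Ezh2 had 0.44 and Eed turned to -0.21. Ezh2 had 0.94 with the division genes as a covariate.

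The relatives and partners of the remaining factors split both ways. Of 15 genes of the Ikaros family and the NuRD complex, with which Ikaros works, 2 had 1 or more and 2 had -1 or less, beside 6.39% and 6.07% of all genes. Ikzf2, which encodes Helios, had 1.06 and was on in 9 of 13 against 9 of 37 cells, and Mbd2 had 1.01. Hdac2 had -1.35 and Mta2 -1.26, and each of the 4 came inside the limit with a cell left out. Ikzf2 had 0.79 without cell 4-6 and as low as 0.77 without 2-6 or 3-1, Hdac2 had -0.96 without 1-6, Mta2 -0.85 without 3-4, and Mbd2 as low as 0.82 without any of 7 cells. Of 12 genes of SET and PP2A, Ppp2r1a, the scaffold of the phosphatase, had -1.40 and Ppp2r5b, a regulatory subunit, 1.139. They had -0.93 without cell 1-9 and as low as 0.76 without 2-6, 3-1, 3-4 or 3-13. The 3 genes of the family of Hlf, Dbp, Tef and Nfil3, had differences of -0.57, -0.12 and 0.18.

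**Figure D4:**
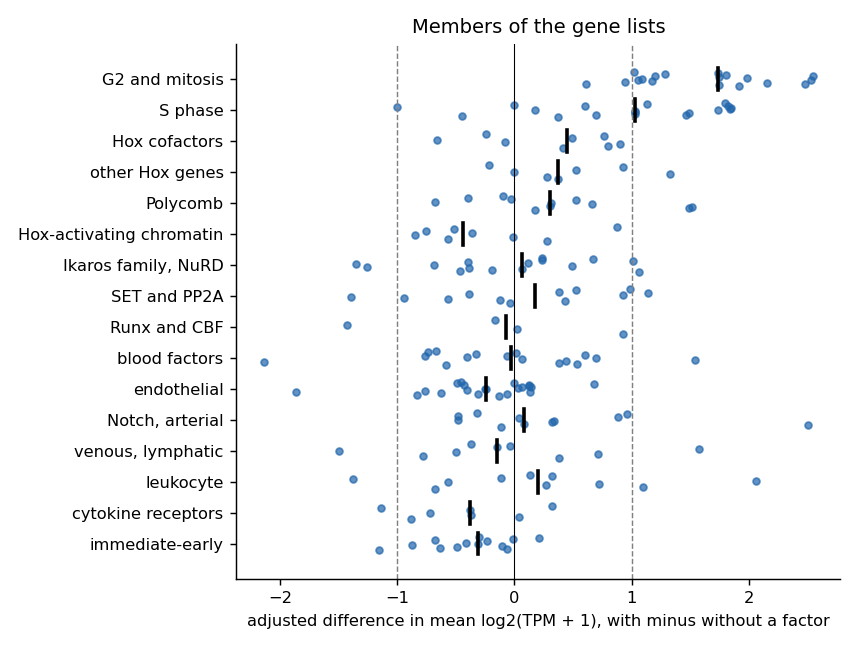
Adjusted difference in mean log2(TPM + 1), cells with minus cells without a factor, for each compared member (points) of 16 gene lists, with the list's median (bar) and the limits of 1 and -1 (dashed). The medians of G2 and mitosis and of S phase genes lie at 1.74 and 1.03, and those of the other lists between -0.44 and 0.45.

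Vessel genes had like means in both groups apart from a few, and cell 4-6 stood low in several of them. Of 21 endothelial genes 20 were inside the limits, with a list median of -0.25, among them the cadherin gene Cdh5 at -0.13 and the receptor genes Tek at -0.06 and Kdr at -0.62. Emcn, the sialomucin endomucin of veins and capillaries, had -1.87. Its TPM ran from 0.50 over a median of 69.4 to 684 in cells with a factor and from 0 over 345 to 2633 in the others, with 11 of 13 and 34 of 37 cells above TPM 1. The groups overlap. In cell 4-6, Esam, Egfl7, Ramp2 and Icam2 lay below the mean of the cells without a factor under first title number 4, with differences of -6.91, -6.89, -6.86 and -6.36 on the log2 scale, and the endothelial list had a median of -3.80 there, while Cdh5 had 0.04. Among 9 venous and lymphatic genes, Flt4, the receptor VEGFR3, had -1.50, with medians of 13.2 and 38.6 TPM. Before adjustment Flt4 had 0.099 under first title number 2 and -2.20, -2.26 and -4.18 under numbers 1, 3 and 4. Lyve1, the hyaluronan receptor, had 1.57, with medians of 201 and 46.4 TPM.

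Hey1, the target of Notch signals that marks arterial endothelium (chromosome 3, 8663359 to 8667256, minus strand), stood apart among 11 compared Notch and arterial genes. Its adjusted difference was 2.51, while the list's median was 0.08 and no other member passed the limit. It was above TPM 1 in 8 of 13 cells with a factor, or 61.5% (exact interval 31.6% to 86.1%), and in 6 of 37 without, or 16.2% (6.19% to 32.01%). The 8 cells were 1-2 at 40.2 TPM, 1-6 at 46.4, 1-10 at 43.3, 2-1 at 8.29, 2-6 at 144, 2-18 at 58.9, 3-1 at 121 and 3-13 at 250, and the other 5 were listed at 0. The 6 cells without a factor lay between 29.03 and 775 TPM, and the rest at no more than 0.62 TPM. Hey1 was on in 3 of 4 cells with Hoxa5, 3 of 4 with Ikzf1, 2 of 3 with Hoxa10 and 2 of 3 with Setbp1. Before adjustment its difference was 3.1, 2.2 and 1.9 under first title numbers 1, 2 and 3, and cell 4-6 alone stood under number 4, at 0. Leaving out each cell with a factor gave 2.145 to 2.86, and the division genes as a covariate gave 2.94. With factors counted above TPM 0 it was 0.83, inside the limit.

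Among 16 blood transcription factors compared, 1 passed the limit in each direction, near the shares of all genes. Sfpi1, the older symbol of Spi1, which encodes PU.1, had 1.54 and Ldb1 had the -2.14 given above, with a list median of -0.03. Sfpi1 was above TPM 1 in 6 of 13 cells with a factor, with 3843 TPM in cell 4-6, and in 18 of 37 without, with a highest of 1149 TPM. Without cell 4-6 its difference was 0.88. Of 10 leukocyte genes, Fcer1g, the common chain of Fc receptors, had 2.06 and was above TPM 1 in 13 of 13 against 28 of 37 cells, with medians of 135 and 13.8 TPM. Its lowest values with a factor were 1.68, 2.05 and 2.36 TPM, so 3 of the 13 cells lay close to the limit for expression. Laptm5, a lysosomal protein of blood cells, had 1.097 and, without cell 4-6, 0.78. Lcp1, the actin bundler L-plastin, had -1.38, and came inside the limit without that cell, at -0.94, and without cell 3-13. Fcgr3, the receptor for IgG that assembles with the chain of Fcer1g, was the 1 of 3 compared myeloid genes past the limit, at 1.804, with medians of 219 and 21.5 TPM, and 0.75 without first title number 2.

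Other blood lineage genes were within the limits apart from Il3ra. The leukocyte list summed to 900 to 7472 TPM with a factor and 34.8 to 5554 without, and its member Spn was listed at 0 in every cell. The myeloid list summed to between 0 and 1651 TPM and between 0 and 1904 TPM, with Itgam at 0 in every cell. Of 3 lymphoid and 4 megakaryocyte genes compared, 0 passed the limit, with medians of -0.23 and -0.07. Il3ra, a chain of the interleukin-3 receptor, was the 1 of 7 cytokine receptor genes past the limit, at -1.14, on in 5 of 13 against 26 of 37 cells, and -0.965 without cell 2-9. Of 13 immediate-early genes, which respond to handling, Fos had -1.15, or -0.79 without cell 4-6 and as near 0 as -0.76 without 1-9, 2-18 or 3-13, and the median was -0.31. Of 81 ribosomal protein genes 0 passed the limit, with a median of 0.03.

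**Figure D5:**
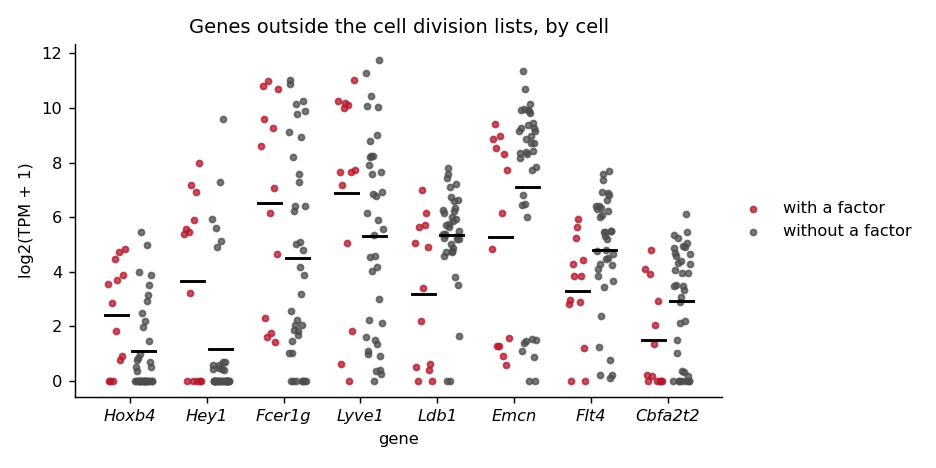
log2(TPM + 1) in each cell, with (red, left) and without (grey, right) a factor, and the group mean (bar), for the 8 list members outside the division lists that stayed past the limit in every leave-out of 1 cell with a factor or of 1 first title number. The groups overlap for each gene, and the genes were picked for their difference. Hey1 is off in 5 of 13 and 31 of 37 cells.

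Outside the division and ribosomal lists, 22 of 174 compared list members passed the limit, 12 higher and 10 lower. That is 12.6%, beside 12.5% of all genes, so the lists as a whole held no more such genes than the table. Of the 22, 8 stayed past it when any 1 cell with a factor or any 1 first title number was dropped. These were Hoxb4, Hey1, Fcer1g and Lyve1 with higher means and Ldb1, Emcn, Flt4 and Cbfa2t2 with lower means in cells with a factor. The same leave-outs were not counted over all genes, so 8 of 22 has no share beside it and is read as no result. All 22 were past the limit with the first title number as a block. With factors counted above TPM 0, 4 of the 8 were past the limit, while Hey1 had 0.83, Lyve1 0.93, Ldb1 -0.99 and Cbfa2t2 -0.44. Of the 582 genes with higher means, 397 were also past the limit with the division genes as a covariate, and of the 553 with lower means 388 were. The 10 leading genes with lower means had -1.815 or less under it. Cdca3 had 1.36, Pmf1 1.82, Hist1h4d 1.74, Pmvk 2.07 and Cited2 2.165 under that covariate, while Rfc5 had 0.91 and Apitd1 0.94. Aurka, Top2a and Ube2c are among the genes that make up the covariate.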

How the data were processed

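The authors amplified cDNA of single sorted cells with the Discover-sc WTA Kit V2, with no molecular identifiers named, aligned reads to mm10 with HISAT2 2.1.0 and estimated expression with StringTie 1.3.4. The deposited values are TPM for 11879 genes in 50 cells. How the rows were selected is not given in the sources used here. TPM keeps no depth, and columns summed to between 942975 and 970894. Groups followed the 8 factors at TPM above 1. Members and gene lists were chosen with earlier results of these data known. Differences are least-squares coefficients on log2(TPM + 1) with the number of genes above TPM 1 (the 8 factors left out) as covariate (Python 3.11.15, numpy 2.4.6), and the fit was tested on simulated data. Values within first title numbers are unadjusted. Named genes were the factors, Runx1, the 10 highest and 10 lowest adjusted differences with 1 sign in every first title number, and list members past a limit of 1 or defining a list. The Hox and Notch values by factor, Cdc6, Tyms, Capn7 and Cox4i1 were chosen after their values were seen. No cells were clustered and no doublet caller was run on these single sorted cells. Coordinates are from GENCODE M21 (GRCm38). Exact intervals are Clopper-Pearson (scipy 1.17.1) at 95%. Alternatives covered the factor level, pseudocount, filter, covariate, scaling and cells left out.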

Additional observations from a re-analysis of the deposited data

How the results depend on the processing

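No paired analysis was possible because the labels give 1 group, and the number of a replicate only names a cell. With the first title number as a block, chosen after seeing the data, 584 genes had higher and 635 lower means, 494 and 473 of them among the 582 and 553, the list medians were 1.504 for G2 and mitosis and 1.155 for S phase genes, and the 20 leading genes stayed past the limit. Counting factors above TPM 0 put 48% of cells in the group with a factor, against 26%. There 15 of the 20 leading genes were past the limit, and Cited2 had 0.67, Rfc5 0.63, Nradd -0.79, Chchd6 -0.55 and Ldb1 -0.99, while Runx1 had -0.17 against 0.93. A factor level of TPM 10 gave 910 genes with higher means, against 582, and a pseudocount of 0.1 gave 1272 higher and 1355 lower, against 582 and 553; the cause was not tested. Leaving out a first title number or a cell with a factor gave 583 to 952 genes with higher means and 571 to 964 with lower means, list medians of 0.92 to 2.95 for G2 and mitosis genes and 0.53 to 1.42 for S phase genes. The number of G2 and mitosis genes as a second covariate, chosen after seeing the data like the cells left out, gave a G2 and mitosis median of 0.0139 and reversed Ube2c, to -0.27, by construction, since the covariate counts these genes themselves. With the filter at 40% of cells, 8 of 9 G2 and mitosis genes were past the limit, and with TPM rescaled without ribosomal protein rows, which also put 14 cells against 36, 12 of 18 were. Unknown depth limits every value listed at 0.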
